A study of Mus musculus with 32 samples.

Results

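The Hox genes of clusters A to D are the 39 homeobox genes that the deposited mouse count table holds among its 55450 genes, selected by symbols made of Hox, a cluster letter and a paralogue number. The Hoxa cluster contributes 11 members, the Hoxb cluster 10, the Hoxc cluster 9 and the Hoxd cluster 9. RNA sequencing was done on 32 libraries from female mice, of which 26 came from tumours of 4 models of high-grade serous ovarian carcinoma and 6 from normal organs. Each model was sampled as primary tumours of the genetically engineered mouse (GEMM) and as allografts, all taken at endpoint, and the models differ in the epithelium in which the lesions were started. In all 4 models Brca1 is lost, Trp53 is lost or mutated, and the retinoblastoma protein Rb is inhibited by the K18GT121 transgene.

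OSE-BPR tumours (5 allografts, 3 GEMM) arose in FVB mice after adenoviral Cre was placed under the bursa of the ovary, where it reaches the ovarian surface epithelium. These mice carried floxed Trp53 and Brca1 (fl/fl each) with K18GT121 Tg/+. Ovgp1-BPR tumours (3 allografts, 3 GEMM) arose in C57Bl/6 mice given tamoxifen, with a CreERT2 driven by Ovgp1 (Tg/+), a secretory-cell gene of the oviduct, floxed Brca1 and K18GT121 Tg/+. The Trp53 allele of Ovgp1-BPR is KozR172H ki/+ in the sample labels, while the series description lists Trp53 fl/fl and also names the R172H mutation, so the sample labels were followed. Ad-BPR tumours (4 allografts, 2 GEMM) arose in C57Bl/6 mice of the same alleles as OSE-BPR after adenoviral Cre was injected into the oviduct. Pax8-BPR tumours (2 allografts, 4 GEMM) arose in tamoxifen-treated C57Bl/6 mice that carried those alleles and Pax8-CreERT2 Tg/+, which is active in secretory cells. The normal oviducts (3) and normal ovaries (3) came from the same 3 wild type C57Bl/6 mice. The OSE-BPR tumours differ from every other group in strain as well as in site, and these cannot be told apart.

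Hox genes encode transcription factors that give positional identity along the head-to-tail axis. Within a cluster the genes lie in the order of their paralogue numbers, and low-numbered genes act further forward and earlier in the embryo than high-numbered genes. In the Müllerian duct the Hoxa genes mark successive segments: Hoxa9 the oviduct, Hoxa10 the uterus, Hoxa11 the lower uterus and cervix, and Hoxa13 the upper vagina. Polycomb complexes keep silent clusters closed, and PBX and MEIS proteins bind DNA together with the Hox proteins.

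In mm10 coordinates the Hoxa cluster lies on chromosome 6, reverse strand, the Hoxb cluster on chromosome 11, the Hoxc cluster on chromosome 15 and the Hoxd cluster on chromosome 2, the last 3 on the forward strand. The promoter windows of 4 members on which the comparisons turn are printed here, 1 from each cluster, running from 250 bases before to 50 bases after the transcript start, as RefSeq gives them for GRCm38.p6. They are written 5′ to 3′ on the gene's strand, with each CpG in capitals, since promoters of Hox genes are known as targets of Polycomb at CpG-rich DNA. Hoxa10 (chr6:52234890-52235189, reverse strand) held 21 CpG, Hoxb8 (chr11:96281655-96281954, forward strand) 13, Hoxc4 (chr15:103034145-103034444, forward strand) 9 and Hoxd3 (chr2:74711743-74712042, forward strand) 20.
Hoxa10: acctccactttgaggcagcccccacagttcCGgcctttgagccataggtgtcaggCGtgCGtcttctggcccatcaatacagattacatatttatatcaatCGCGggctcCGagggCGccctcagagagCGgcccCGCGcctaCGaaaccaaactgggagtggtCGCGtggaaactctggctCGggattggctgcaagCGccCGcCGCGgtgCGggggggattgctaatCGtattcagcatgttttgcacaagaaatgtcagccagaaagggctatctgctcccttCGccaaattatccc
Hoxb8: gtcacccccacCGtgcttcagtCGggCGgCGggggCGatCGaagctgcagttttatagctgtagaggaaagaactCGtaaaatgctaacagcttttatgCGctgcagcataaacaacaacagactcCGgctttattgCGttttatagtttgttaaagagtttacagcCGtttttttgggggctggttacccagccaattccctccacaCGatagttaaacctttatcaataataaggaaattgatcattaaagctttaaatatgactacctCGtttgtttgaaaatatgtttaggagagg
Hoxc4: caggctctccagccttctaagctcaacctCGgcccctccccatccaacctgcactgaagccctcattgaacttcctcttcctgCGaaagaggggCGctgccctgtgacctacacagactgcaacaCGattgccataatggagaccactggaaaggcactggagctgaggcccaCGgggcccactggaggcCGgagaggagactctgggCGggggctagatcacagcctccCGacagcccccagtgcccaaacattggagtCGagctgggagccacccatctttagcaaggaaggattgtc
Hoxd3: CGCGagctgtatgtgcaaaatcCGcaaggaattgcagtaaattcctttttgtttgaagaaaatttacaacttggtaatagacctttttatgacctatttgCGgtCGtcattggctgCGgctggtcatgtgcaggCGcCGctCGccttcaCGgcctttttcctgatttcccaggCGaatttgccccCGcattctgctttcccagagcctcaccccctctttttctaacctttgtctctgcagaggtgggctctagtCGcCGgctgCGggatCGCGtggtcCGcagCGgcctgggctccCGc
In all, 22 of the 39 members had a RefSeq window, 24 windows together, and these held 4 to 45 CpG with a median of 14.5, beside a median of 7 over all 32851 windows. On both strands, the TATA box letters TATAAA were found in 4 of the 24 windows (13.6% of all windows), the PBX-HOX letters TGATNNAT in 4 (8.85%) and the CCAAT box letters CCAAT in 15 (37.4%). The retinoic acid element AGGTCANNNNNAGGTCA was in none of the 24 and in 0.00913% of all windows. A second RefSeq window of Hoxa10 (chr6:52240805-52241104, reverse strand), not printed, held 12 CpG and none of these letters. Of the 4 printed, all hold CCAAT, Hoxa10 and Hoxb8 hold TATAAA, and Hoxb8 holds TGATNNAT.

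Libraries held 13987123 to 20514825 counts, with a median of 17426862. Levels are given in TPM, transcripts scaled by length and depth, a scale on which genes can be set side by side. Calls come from counts at a Benjamini-Hochberg adjusted p under 0.05. Exon bases of 16 members overlap another gene, 9 of them on the same strand and 10 on the opposite strand, and the sources used here do not say whether reads keep strand. The overlap is largest for Hoxd3, of whose exon bases 62.3% are shared with Hoxd4 or a read-through gene, for Hoxb3 (52.9% opposite the antisense RNA Hoxb3os) and for Hoxd4 (52.3%), so counts of Hoxd3 and Hoxd4 may be split between them. All samples are bulk tissue, in which fewer cells of a type and less RNA per cell cannot be told apart. Nothing says that the allografts of a model came from separate primary tumours, so p-values measure the spread between these libraries only. The 8 epithelial markers summed to 2235 to 5051 TPM in OSE-BPR tumours, 713.9 to 4642 in Ovgp1-BPR, 5647 to 9526 in Ad-BPR, 2261 to 10303 in Pax8-BPR, 1604 to 1928 in normal oviduct and 75.7 to 129.7 in normal ovary, and no marker of the list was at 0 throughout a group.

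Across the 32 libraries, 36 members reached 1 TPM somewhere. Hoxb1, Hoxd12 and Hoxd13 stayed under 1 TPM in every library, and 28 members had a mean of at least 5 TPM in some group. The sum over all 39 members was 20.6 to 239 TPM in OSE-BPR allografts and 49.5 to 400.2 in OSE-BPR GEMM tumours. Ovgp1-BPR tumours covered a similar span, 13.8 to 240.1 TPM in allografts and 36.7 to 369 in GEMM tumours. In the other oviduct models the sum was 178 to 383 TPM in Ad-BPR and 133 to 726 in Pax8-BPR tumours, beside 585 to 676 TPM in normal oviduct and 295 to 313 in normal ovary.

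**Figure D1:**
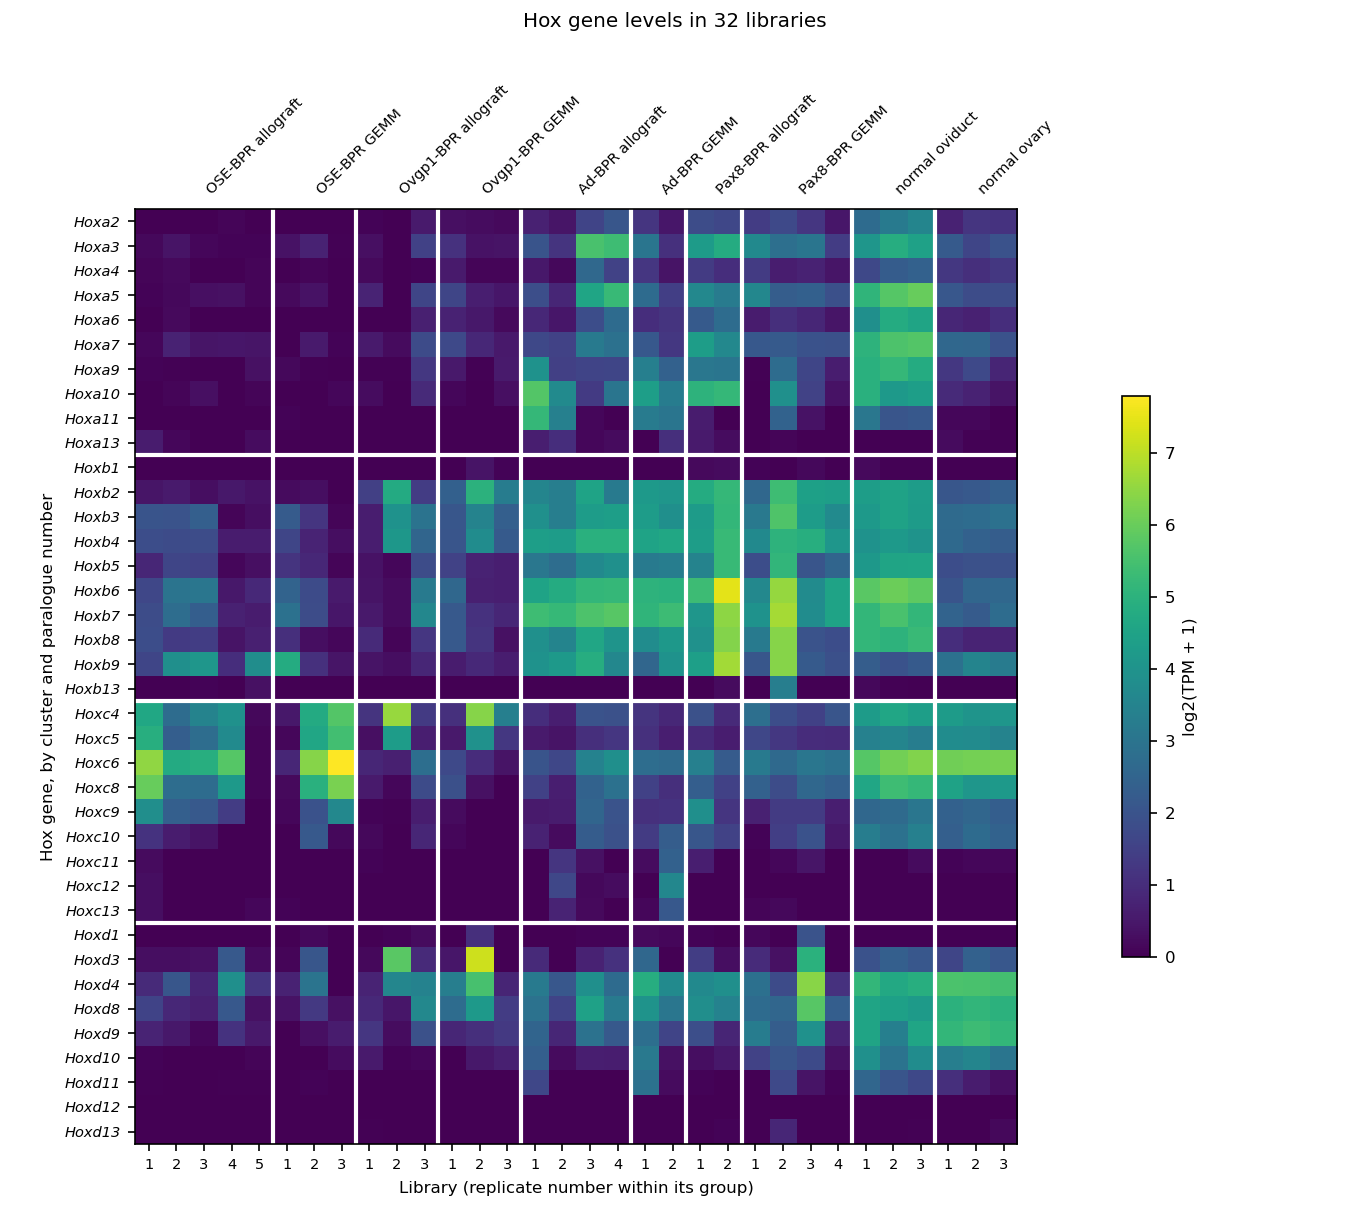
Level of 38 Hox genes (rows, by cluster and paralogue number) in each of the 32 libraries (columns, by group), as log2(TPM + 1) in colour. The Hoxa rows are near 0 in all 8 OSE-BPR tumours, where Hoxc6 reaches 219.8 TPM, and the Hoxb rows are filled in Ad-BPR and Pax8-BPR tumours and in the oviduct.

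The 4 clusters were not used alike by the models. The Hoxa cluster summed to 0.19 to 1.68 TPM over the 8 OSE-BPR tumours and to 0.34 to 10.1 TPM over the 6 Ovgp1-BPR tumours. Ad-BPR tumours held 27.8 to 112 TPM and Pax8-BPR tumours 9.38 to 99.6 TPM, beside 170 to 223 TPM in oviduct and 13.6 to 17.9 TPM in ovary. All 8 OSE-BPR sums lay below the ovaries, and every tumour of every model lay below the oviducts. Among the models, the Hoxb cluster was again lowest in OSE-BPR and Ovgp1-BPR tumours. It summed to 1.68 to 46.2 TPM in OSE-BPR, 5.19 to 58.9 in Ovgp1-BPR, 134 to 216 in Ad-BPR and 65.0 to 591 in Pax8-BPR tumours, 196 to 227 in oviduct and 31.7 to 37.3 in ovary.

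The Hoxc and Hoxd clusters behaved otherwise. Hoxc sums ran to 0.45 to 397 TPM in OSE-BPR tumours (median 76.1) and to 2.97 to 115 TPM in Ovgp1-BPR (median 11.4). Ad-BPR tumours held 7.59 to 32.0 TPM and Pax8-BPR tumours 10.2 to 34.7, both below the 118 to 159 TPM of oviduct and the 124 to 128 TPM of ovary. The Hoxc share of all Hox TPM ran from 2.2 to 99.3% among OSE-BPR tumours, against at most 42.2% in ovary. Hoxd sums were 0.97 to 21.9 TPM in OSE-BPR, 3.57 to 211 in Ovgp1-BPR, 6.22 to 68.3 in Ad-BPR and 6.26 to 187 in Pax8-BPR tumours, against 68.6 to 101 in oviduct and 120 to 136 in ovary. Normal ovary thus held mainly Hoxc and Hoxd transcript, and the oviduct held all 4 clusters.

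**Figure D2:**
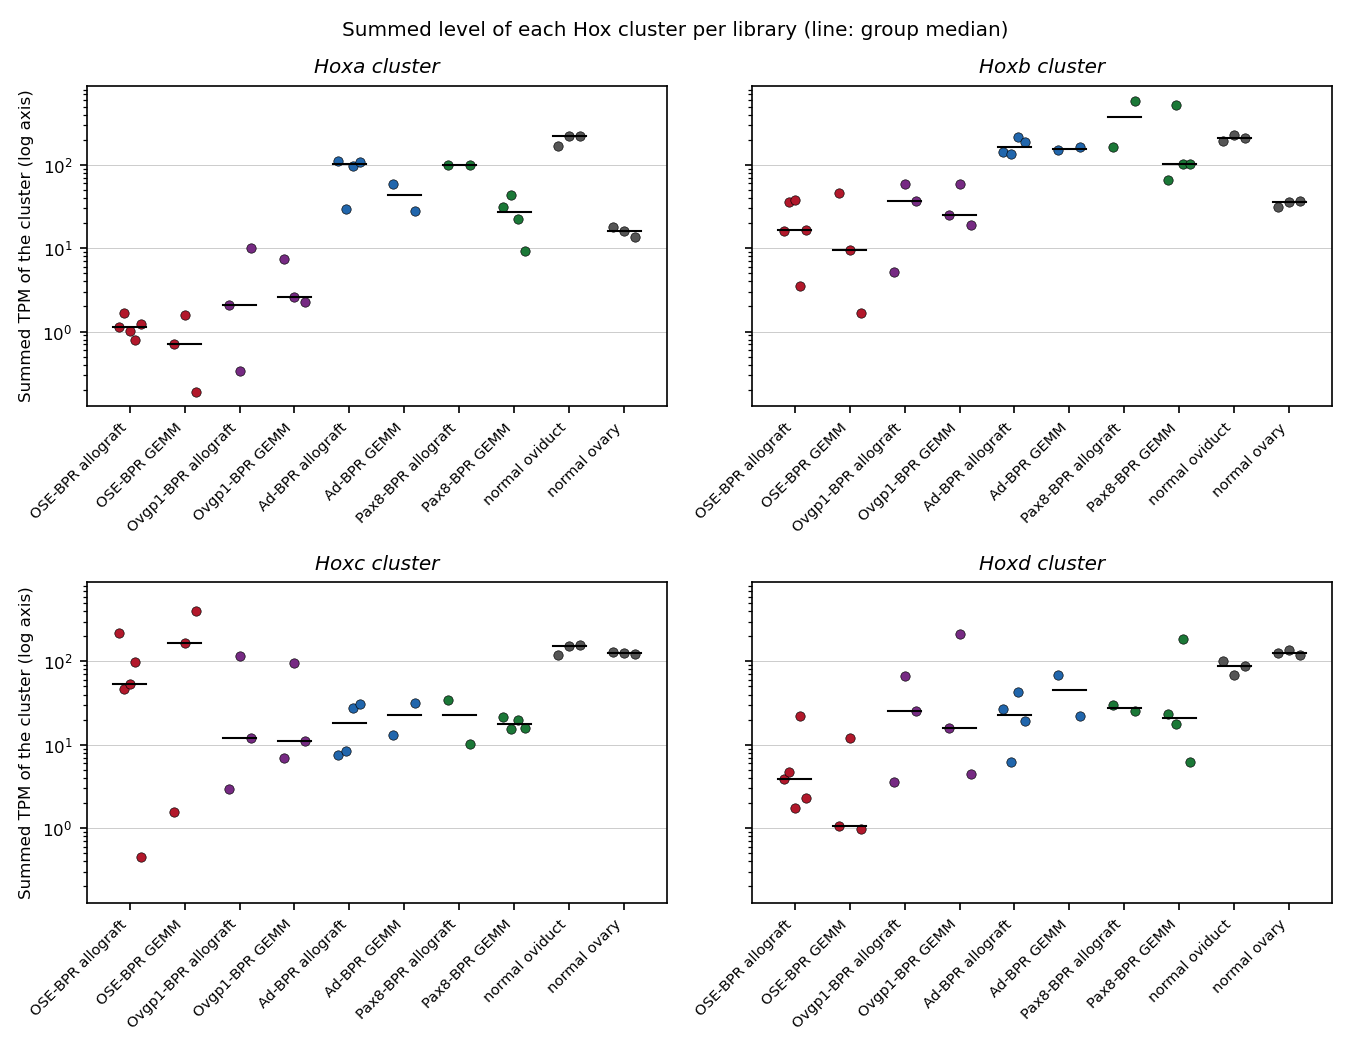
Summed TPM of each cluster in every library (points; log axis), by model with normal tissues at the right. Among the models, OSE-BPR and Ovgp1-BPR tumours have the lowest medians for Hoxa and Hoxb, and the Hoxc sums of OSE-BPR tumours spread over 0.45 to 397 TPM.

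Along each cluster, the position of expression differed between models. In normal oviduct the Hoxa profile was highest at Hoxa5 (49.2 ± 14.9 TPM, SD, n = 3), which patterns the thorax and lung, and Hoxa7 (43.3 ± 10.2), and still reached Hoxa11 (4.70 ± 2.43). Normal ovary ended earlier and lower, with Hoxa7 at 5.03, 4.89 and 2.92 TPM in ovaries 1 to 3, Hoxa9 at 1.49 ± 0.77 and Hoxa10 at 0.64 ± 0.29 TPM (SD, n = 3 each). At Hoxa10 the median was 10.5 TPM over the 6 Ad-BPR tumours (1.52 to 51.2). Pax8-BPR tumours were divided at this gene, with 31.5 and 35.5 TPM in allografts 1 and 2 and 0.00, 14.2, 1.93 and 0.30 TPM in GEMM 1 to 4. Hoxc expression ended at Hoxc10 in both organs, and Hoxc11, Hoxc12 and Hoxc13, genes of the tail end of the axis and of hair and nail, were at or under 0.16 TPM in all normal libraries. The same 3 genes appeared together in Ad-BPR allograft 2, at 1.32, 2.15 and 0.70 TPM, and in Ad-BPR GEMM 2, at 4.36, 11.3 and 3.41 TPM. In the other 30 libraries none of the 3 passed 0.58 TPM. Hoxb13, the posterior gene of the Hoxb cluster best known from prostate, was at 8.96 TPM in Pax8-BPR GEMM 2 and at or below 0.28 TPM in the other 31 libraries.

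**Figure D3:**
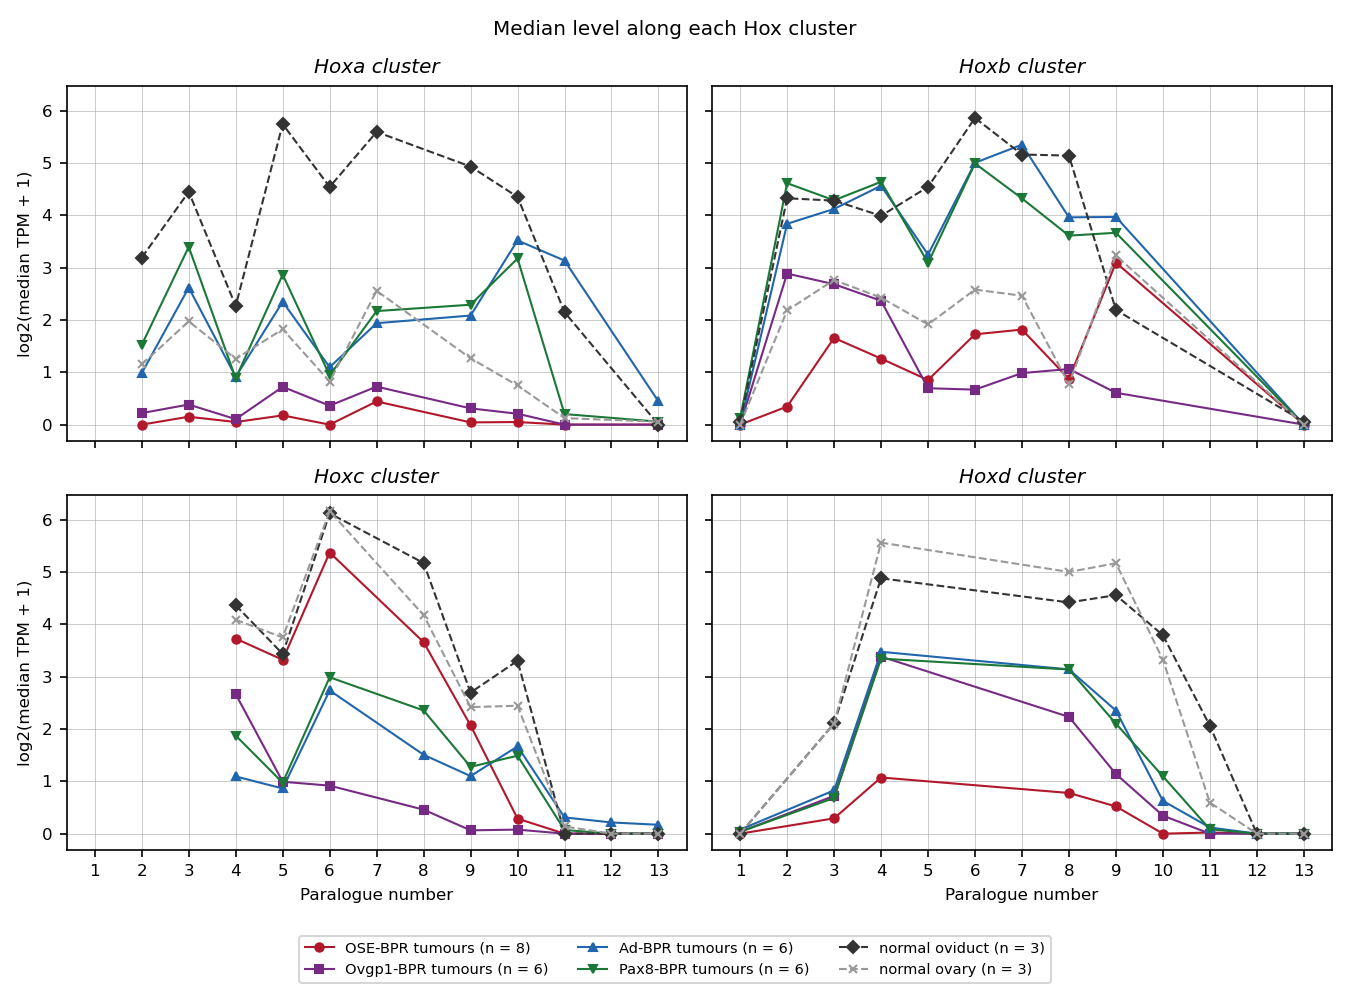
Median level along each cluster for 38 genes (x axis, paralogue number; y axis, log2 of median TPM + 1) for the 4 models and the normal organs; lines join group medians. OSE-BPR tumours run near 0 along Hoxa and close to ovary along Hoxc up to Hoxc9, and Ad-BPR and Pax8-BPR tumours follow the oviduct along Hoxb up to Hoxb4.

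Normal oviduct against normal ovary asks what positional code the organs of origin carry. The oviduct held far more Hoxa and Hoxb transcript and about as much Hoxc, and slightly less of some Hoxd genes. Of the 30 members tested, 20 were higher and 3 lower in oviduct by edgeR's quasi-likelihood test, 76.7% of the members against 53% of all 17334 genes. A fit on all 32 libraries called 9. The median log2 difference was 1.88 for the members and 0.017 for all genes. By cluster, 9 of 10 tested Hoxa genes were higher, 7 of 8 Hoxb genes higher and 1 lower, 3 of 6 Hoxc genes higher, and 1 of 6 Hoxd genes higher with 2 lower.

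Hoxa11, a gene of the uterus and cervix, had 7.50, 3.17 and 3.44 TPM in oviducts 1 to 3, against 0.11, 0.09 and 0.00 TPM in ovaries 1 to 3. The groups did not overlap, and the log2 difference was 6.30 ± 0.72 (SE; edgeR adjusted p = 0.00044). Exon bases of Hoxa11 overlap its antisense RNA Hoxa11os over 35.0%, and Hoxa11os was higher in oviduct too (log2 7.89 ± 1.05, edgeR adjusted p = 0.0027).
Hoxb8, which acts in spinal sensory neurons and myeloid cells, had 34.4, 31.8 and 37.6 TPM in oviducts against 1.02, 0.70 and 0.71 TPM in ovaries. The replicates of each organ were tight, and the log2 difference was 5.38 ± 0.16 (edgeR adjusted p = 4.4e-06). Hoxa10, needed for uterine identity and implantation, had 30.1, 17.4 and 19.5 TPM in oviducts against 0.91, 0.68 and 0.34 TPM in ovaries (log2 5.24 ± 0.35, edgeR adjusted p = 4e-05). Hoxa6, an axial patterning gene, differed by 4.81 ± 0.34 (edgeR adjusted p = 5e-05), and Hoxa9, the oviduct gene of the Müllerian series, by 4.73 with 29.6, 35.7 and 26.8 TPM in oviducts against 1.41, 2.29 and 0.76 TPM in ovaries.
The 3 genes lower in oviduct were close in level. Hoxb9, a thoracic patterning gene also used in the mammary gland, had 3.90, 2.86 and 3.57 TPM in oviducts against 6.54, 10.3 and 8.41 TPM in ovaries (log2 -1.10 ± 0.22, edgeR adjusted p = 0.0052). Hoxd8, an axial gene, differed by -0.52 ± 0.11 (adjusted p = 0.0077) and Hoxd4 by -0.48 ± 0.14 (adjusted p = 0.025). The call of Hoxd4 was lost without ovary 1 (adjusted p = 0.06), ovary 2 (0.07) or oviduct 3 (0.07), all by edgeR.
The 8 smooth muscle markers summed to 8409 to 11179 TPM in oviducts against 1752 to 2233 in ovaries, with none at 0. The 8 granulosa, theca and luteal markers summed to 801.7, 63.1 and 539.8 TPM in oviducts 1 to 3, against 4802 to 5581 in ovaries, so oviducts 1 and 3 carried more ovarian transcript than oviduct 2. Their part in the Hox differences was not tested.

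OSE-BPR GEMM tumours against normal ovary sets the tumours of the surface epithelium beside the organ that bears it. The tumours held less Hoxa and Hoxd transcript, while no Hoxc gene differed by the test. Hoxc levels were not alike in the tumours, with sums of 1.58, 167 and 397 TPM in OSE-BPR GEMM 1 to 3 against 124 to 128 TPM in ovaries. Of 35 members tested, none was higher and 14 were lower by edgeR, against 23.2% called among all 20887 genes. The median log2 difference was -2.89, or -2.02 with genes absent from an arm set at their bound, beside 0.003 for all genes. The 14 were 8 of 11 Hoxa, 2 of 8 Hoxb and 4 of 7 Hoxd genes, and 0 of 9 Hoxc genes. Without OSE-BPR GEMM 3 the count was 8, and limma on log2(TPM + 1) called 9.

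Hoxd9, which patterns limb and lumbar levels, had 0.00, 0.26 and 0.50 TPM in OSE-BPR GEMM 1 to 3, against 35.0, 39.8 and 35.0 TPM in ovaries. The log2 difference was -7.29 ± 1.21 (edgeR adjusted p = 0.00016). Hoxd8 had 0.29, 1.44 and 0.27 TPM in the tumours against 31.1, 34.0 and 31.0 TPM in ovaries (log2 -6.14 ± 1.28, edgeR adjusted p = 0.0013).
Hoxd10, a gene of the lumbar motor column and hindlimb, had 0.00, 0.00 and 0.20 TPM in the tumours against 9.03, 10.7 and 7.15 TPM in ovaries, and its 3 tumour counts allow no fold. Hoxa2, the gene of the second pharyngeal arch, had no count in the 3 tumours and 55 counts in the ovaries, at least 5.60-fold lower with 3 counts per library as the floor (edgeR adjusted p = 0.00098). All 4 genes were below every ovary in each tumour.
The 8 epithelial markers summed to 2235 to 2854 TPM in these tumours against 75.7 to 129.7 in ovaries, and the granulosa, theca and luteal markers to 103 to 359 against 4802 to 5581, with Lhcgr at 0 in the tumours. The part of tissue composition was not tested, and strain cannot be told apart from the tumour.

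The 3 oviduct models were each set against the same 3 oviducts, so the comparisons share their control samples. Ovgp1-BPR GEMM tumours were the most depleted. Of 35 members tested, none was higher and 21 were lower by edgeR, against 32.6% called among all 20887 genes, with a median log2 difference of -4.53 beside -0.046 for all genes. The 21 were 10 of 11 Hoxa, 4 of 8 Hoxb, 4 of 9 Hoxc and 3 of 7 Hoxd genes.
Ad-BPR GEMM tumours had 3 members higher and 4 lower, 20.0% against 24.1% of all genes, with a median of -1.17 beside -0.068. Pax8-BPR GEMM tumours had 1 higher and 6 lower, 20.0% against 32.2% of all genes, with a median of -1.34 beside -0.009. These counts depended on the fit: with only the groups compared, 18 members were called in Ad-BPR (1 higher, 17 lower) and 12 in Pax8-BPR, and limma on log2(TPM + 1) called 13 and 14. Their lower calls were 4 and 5 Hoxa genes, plus Hoxc6 in Pax8-BPR, and none of the 8 Hoxb genes tested was called in either.

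In Ovgp1-BPR GEMM tumours Hoxa11 and Hoxd11, both acting in limb and kidney, had no count in any of the 3 libraries. The oviducts held 354 counts of Hoxa11 and 214 counts of Hoxd11, which makes the tumours at least 39.2-fold lower for Hoxa11 (edgeR adjusted p = 0.024) and at least 23.5-fold lower for Hoxd11 (adjusted p = 0.0092). The Hoxa11 call was lost without any single tumour (edgeR adjusted p = 0.055 without Ovgp1-BPR GEMM 1, 0.069 without 2 and 0.071 without 3).
Hoxa10 had 0.11, 0.00 and 0.26 TPM in Ovgp1-BPR GEMM 1 to 3 against 30.1, 17.4 and 19.5 TPM in oviducts, from 4 tumour counts (log2 -8.33 ± 1.75, edgeR adjusted p = 0.00096). Hoxc10, a lumbar and hindlimb gene, had 0.11, 0.00 and 0.00 TPM against 8.89, 6.51 and 9.47 TPM, with 2 tumour counts that allow no fold. Neither gene overlapped between the groups.

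In Ad-BPR GEMM tumours the genes called lower were all of the Hoxa cluster. Uncalled Hoxc genes lay below the oviducts too. Hoxc4 had 1.26 and 0.81 TPM against 18.5, 23.3 and 19.6 TPM, and Hoxc6 had 5.94 and 5.41 TPM against 52.5, 68.8 and 78.5 TPM. The median log2 difference was -2.45 over the 9 Hoxc genes tested, of which 2 were called higher, beside -2.20 over the 11 Hoxa genes. Hoxa6 had 1.01 and 1.27 TPM in the 2 tumours against 13.8, 26.6 and 22.3 TPM in oviducts (log2 -4.25 ± 1.11, edgeR adjusted p = 0.0083). Hoxa7, active in trunk patterning and skin, had 3.45 and 1.38 TPM against 31.6, 47.4 and 50.8 TPM (log2 -4.23 ± 0.97, edgeR adjusted p = 0.0032). Hoxa5 differed by -3.88 ± 1.35 (adjusted p = 0.038) and Hoxa2 by -3.38 ± 1.07 (adjusted p = 0.025).
All 4 calls were lost without Ad-BPR GEMM 2, when 0 of the members passed by edgeR: the adjusted p was then 0.083 for Hoxa6, 0.072 for Hoxa7, 0.25 for Hoxa5 and 0.22 for Hoxa2. Without Ad-BPR GEMM 1 it was 0.084 for Hoxa6, 0.1 for Hoxa5 and 0.069 for Hoxa2. Hoxa5 was also lost without oviduct 1 (0.052), 2 (0.066) or 3 (0.074), and Hoxa2 without oviduct 3 (0.059).
The 3 higher genes were at 0 in all oviducts. Hoxc12 had 0.00 and 11.3 TPM in Ad-BPR GEMM 1 and 2 (108 counts, at least 17.2-fold, edgeR adjusted p = 0.033) and Hoxc13 had 0.11 and 3.41 TPM (88 counts, at least 14.1-fold, adjusted p = 0.019). Hoxa13, the vaginal gene of the Müllerian series, had 0.00 and 1.06 TPM (26 counts, at least 4.13-fold, adjusted p = 0.021) and is named because it was called, after its values were seen. These values rest on Ad-BPR GEMM 2, without which Hoxc12 is at 0 in both arms and Hoxc13 has an adjusted p of 0.35. Leaving out oviduct 1, 2 or 3 also ended the calls of Hoxc12 (edgeR adjusted p = 0.076, 0.078 and 0.081) and Hoxc13 (0.051, 0.054 and 0.056), and left 3, 3 and 2 members called. DESeq2 did not call either gene (adjusted p = 0.44 and 0.17).

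In Pax8-BPR GEMM tumours Hoxa6 had 0.52, 1.05, 0.79 and 0.37 TPM in tumours 1 to 4 against 13.8, 26.6 and 22.3 TPM in oviducts (log2 -4.91 ± 0.85, edgeR adjusted p = 0.00016). Hoxa7 had 3.38, 3.63, 2.88 and 2.85 TPM against 31.6, 47.4 and 50.8 TPM, with little spread among the tumours (log2 -3.67 ± 0.71, edgeR adjusted p = 0.00036). Hoxa9 had 0.03, 5.73, 2.07 and 0.54 TPM against 29.6, 35.7 and 26.8 TPM (log2 -3.95 ± 1.00, edgeR adjusted p = 0.0041).
All tumours lay below all oviducts for these 3 genes. Hoxc6, an anterior thoracic gene also used in the mammary gland, had 8.03, 5.39, 7.33 and 6.56 TPM in the tumours against 52.5, 68.8 and 78.5 TPM in oviducts (log2 -3.17 ± 1.13, edgeR adjusted p = 0.034). Its call was lost without Pax8-BPR GEMM 2 (0.07), 3 (0.07) or 4 (0.074), and without oviduct 1 (0.056), 2 (0.067) or 3 (0.075), although the groups stood apart in every case.
The single higher gene was Hoxd1, a gene of sensory neurons, named after its values were seen. It had 0.11, 0.00, 2.99 and 0.00 TPM in tumours 1 to 4 and no count in the oviducts (65 counts, at least 4.94-fold higher, edgeR adjusted p = 0.043). It rests on Pax8-BPR GEMM 3. The count of calls was 3 without oviduct 3, 4 without Pax8-BPR GEMM 4 and 11 without Pax8-BPR GEMM 2.
Fibroblast and matrix markers summed to 728.5 to 1427 TPM in Ovgp1-BPR, 2972.5 to 4063.5 in Ad-BPR and 1769 to 4769 in Pax8-BPR GEMM tumours, against 3278 to 4929 in oviducts. Smooth muscle markers summed to 623.5 to 1316 TPM over these GEMM tumours, against 8409 to 11179 in oviducts. Neither list had a gene at 0 throughout a group, and their part was not tested.

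OSE-BPR tumours were then set against the 3 oviduct models, in GEMM tumours and in allografts. OSE-BPR tumours were lower for most Hoxa genes and for some Hoxb and Hoxd genes, and higher for some central Hoxc genes. Of 35 members tested in GEMM tumours, 4 were higher and 15 lower by edgeR, 54.3% against 26% of all 20000 genes. The median log2 difference was -3.24, or -2.88 with bounds, beside 0.021 for all genes. In allografts 3 were higher and 18 lower of 35 tested, against 37.8% called among all genes, with a median of -2.58, or -2.50 with bounds, beside 0.041. The higher calls were all of the Hoxc cluster, 4 of 9 in GEMM tumours and 3 of 9 in allografts. The lower calls were 8 Hoxa, 4 Hoxb and 3 Hoxd genes in GEMM tumours, and 9 Hoxa, 7 Hoxb and 2 Hoxd genes in allografts.
The oviduct side is the mean of the 3 models on the log scale. A member with 0 counts in a whole group of that mean has no finite value there, and no fold is given for it. That holds for 6 members in GEMM tumours (Hoxa11, Hoxa13, Hoxc11, Hoxc12, Hoxc13 and Hoxd11) and for 5 in allografts (the same without Hoxc11), none of them called.

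**Figure D4:**
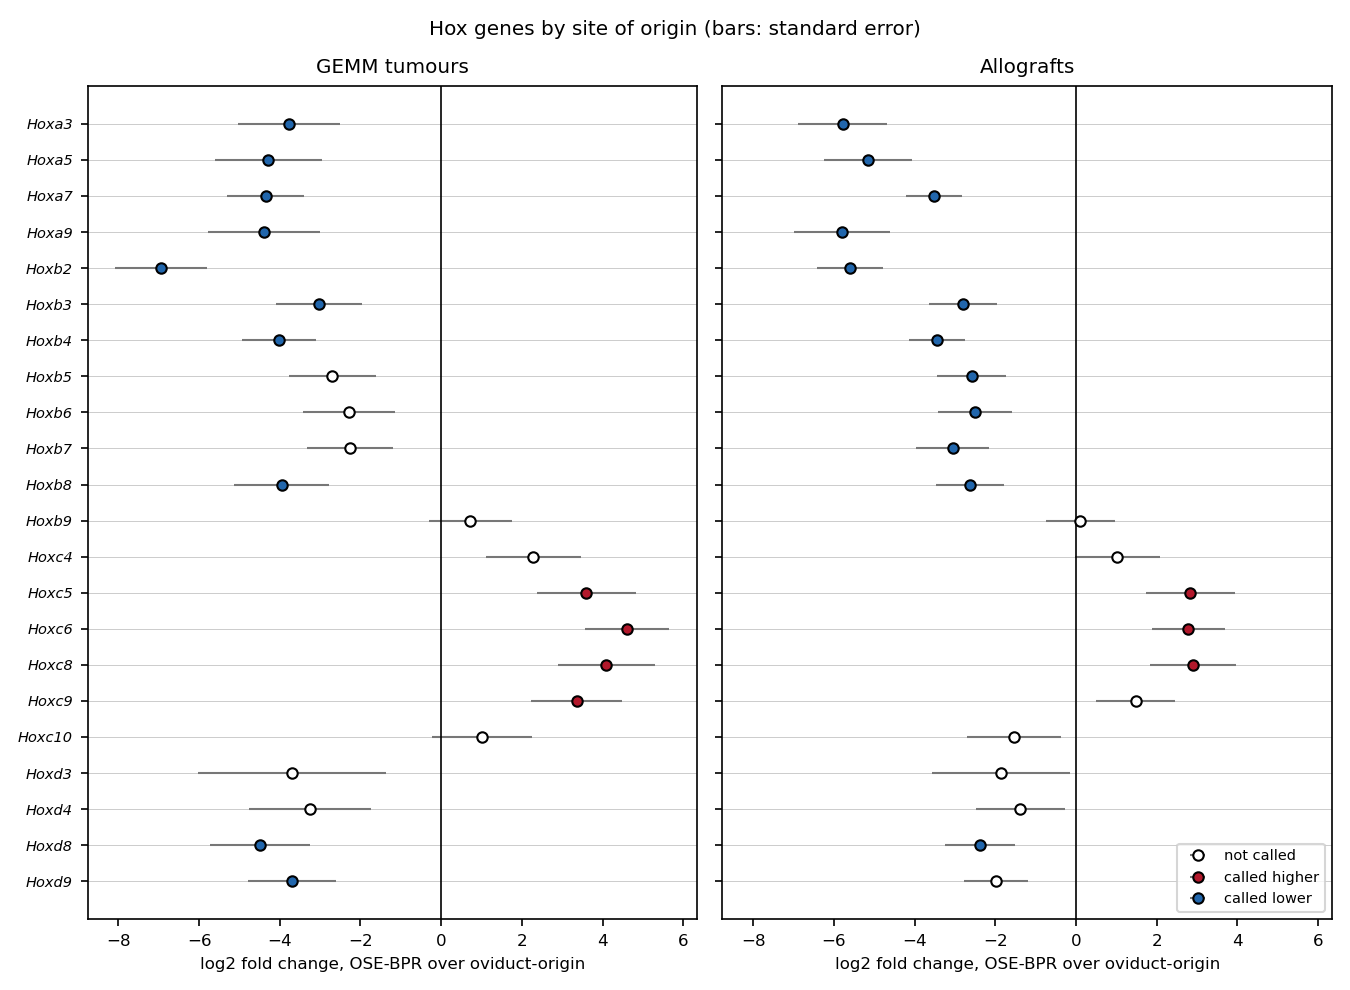
Log2 fold change (x axis) of OSE-BPR over oviduct-origin tumours for 22 Hox genes with over 3 counts on both sides and counts in every group averaged, in GEMM tumours (left) and allografts (right); points are coloured by call and bars are the standard error. Hoxc5, Hoxc6 and Hoxc8 are called higher in both panels, and Hoxb2, Hoxb3 and Hoxb4 are called lower in both.

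Hoxc6 had 0.77, 81.0 and 219.8 TPM in OSE-BPR GEMM 1 to 3. The oviduct-origin GEMM tumours held 2.30, 1.00 and 0.34 TPM (Ovgp1-BPR), 5.94 and 5.41 TPM (Ad-BPR) and 8.03, 5.39, 7.33 and 6.56 TPM (Pax8-BPR). OSE-BPR GEMM 2 and 3 stood above all of these and GEMM 1 lay among the Ovgp1-BPR values, so the groups overlapped. The log2 difference was 4.61 ± 1.05 (edgeR adjusted p = 0.0032), and the call held without each of the GEMM libraries in turn.
In allografts Hoxc6 had 89.0, 26.1, 28.6, 52.4 and 0.08 TPM in OSE-BPR allografts 1 to 5. The oviduct-origin allografts held 0.78, 0.61 and 6.08 TPM (Ovgp1-BPR), 3.10, 2.16, 9.98 and 13.8 TPM (Ad-BPR) and 9.53 and 3.72 TPM (Pax8-BPR). Allografts 1 to 4 were above all of these and allograft 5 below, with a log2 difference of 2.79 ± 0.91 (edgeR adjusted p = 0.02). The call was lost without OSE-BPR allograft 1 (0.075), Pax8-BPR allograft 1 (0.056) or Pax8-BPR allograft 2 (0.087).
Hoxc8, which patterns the thoracic skeleton and the forelimb motor pool, had 61.6, 5.90, 5.76, 17.4 and 0.07 TPM in OSE-BPR allografts 1 to 5 and 0.15, 29.9 and 73.3 TPM in GEMM 1 to 3. Oviduct-origin tumours reached 6.54 TPM at most. The log2 difference was 4.09 ± 1.20 in GEMM tumours (edgeR adjusted p = 0.016) and 2.90 ± 1.07 in allografts (adjusted p = 0.037). The first call was lost without OSE-BPR GEMM 3 (0.15), Ad-BPR GEMM 1 (0.064) or Ad-BPR GEMM 2 (0.076), and the second without any of 7 libraries, most of all OSE-BPR allograft 1 (log2 1.54, adjusted p = 0.27).
Hoxc5, an axial gene, differed by 3.59 ± 1.23 in GEMM tumours (edgeR adjusted p = 0.036) and by 2.84 ± 1.11 in allografts (adjusted p = 0.05 after rounding). Hoxc9, a regulator of thoracic motor neurons, differed by 3.36 ± 1.13 in GEMM tumours (adjusted p = 0.033). Both GEMM calls were lost without OSE-BPR GEMM 3 (log2 2.69 and adjusted p = 0.19 for Hoxc5, 1.65 and 0.41 for Hoxc9), among other libraries, and Hoxc5 in allografts without any of 11 of the 14 libraries, most of all OSE-BPR allograft 1 (1.88 and 0.21). On log2(TPM + 1) with limma none of these Hoxc calls was made, with adjusted p of 0.077 to 0.2. Hoxc transcript was thus concentrated in 6 of the 8 OSE-BPR tumours, and in OSE-BPR allograft 5 and GEMM 1 the whole cluster summed to 0.45 and 1.58 TPM.

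Among the lower genes named here, Hoxb2 did not overlap between the groups, while Hoxa3, Hoxa9 and Hoxa10 did. Hoxb2, which patterns the hindbrain, was at or under 0.48 TPM in all 8 OSE-BPR tumours and at 1.61 TPM or more in all 18 oviduct-origin tumours. The log2 difference was -6.93 ± 1.14 in GEMM tumours (edgeR adjusted p = 0.00023) and -5.60 ± 0.82 in allografts (adjusted p = 3.6e-05). In normal ovary Hoxb2 stood at 3.21, 3.54 and 4.10 TPM, above every OSE-BPR tumour.
Hoxa10 had 0.00 to 0.25 TPM in OSE-BPR allografts and 0.00, 0.00 and 0.09 TPM in GEMM tumours, where it had 1 count in all. The oviduct-origin side was split, with at most 0.92 TPM in Ovgp1-BPR tumours, 1.52 to 51.2 TPM in Ad-BPR and 0.00 to 35.5 TPM in Pax8-BPR. The log2 difference in allografts was -6.81 ± 1.45 (edgeR adjusted p = 0.0011). Hoxa10 was also called in GEMM tumours, a call lost without any of 5 libraries, at adjusted p of 0.051 to 0.12.
Hoxa9 had 0.12, 0.03 and 0.00 TPM in OSE-BPR GEMM 1 to 3, against 0.03 to 9.22 TPM over the oviduct-origin GEMM tumours (log2 -4.38 ± 1.39, edgeR adjusted p = 0.025, lost without OSE-BPR GEMM 2, at 0.097, or 3, at 0.11). In allografts the difference was -5.79 ± 1.19 (adjusted p = 0.00082). Hoxa3, needed for thymus and parathyroid, was at 0.05 to 0.32 TPM in OSE-BPR allografts against 0.00 to 45.5 TPM in oviduct-origin allografts (log2 -5.78 ± 1.11, edgeR adjusted p = 0.00046). Hoxd8 differed by -4.49 ± 1.24 in GEMM tumours (edgeR adjusted p = 0.012), lost without OSE-BPR GEMM 3 (0.065).
Hoxb9 was the only Hoxb gene tested that was not called lower in allografts. It had 2.11, 13.7, 15.9, 1.03 and 13.0 TPM in OSE-BPR allografts 1 to 5 and 26.9, 1.12 and 0.36 TPM in GEMM 1 to 3. The oviduct-origin side was split for Hoxb9, with 0.23 to 0.85 TPM in Ovgp1-BPR tumours, 4.96 to 27.7 TPM in Ad-BPR and 2.71 to 103.5 TPM in Pax8-BPR. Against the mean of these models Hoxb9 did not pass the test (log2 0.73, edgeR adjusted p = 0.64 in GEMM tumours, log2 0.10 and 0.95 in allografts). The 2 OSE-BPR tumours with almost no Hoxc, allograft 5 and GEMM 1, were among the 4 OSE-BPR tumours highest for Hoxb9.
The count of members called in GEMM tumours was 7 without OSE-BPR GEMM 3, 8 without OSE-BPR GEMM 2 and 11 without Ad-BPR GEMM 1, and limma on log2(TPM + 1) called 12. Fibroblast and matrix markers summed to 225.0 to 830 TPM in OSE-BPR tumours, against 728.5 to 1427 in Ovgp1-BPR, 2972.5 to 7607 in Ad-BPR and 1769 to 4769 in Pax8-BPR tumours, with none at 0 in a group. Their part was not tested.

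Ovgp1-BPR tumours were set against Ad-BPR and Pax8-BPR tumours, the other oviduct models of the same strain. The Trp53 allele of Ovgp1-BPR differs from that of both, and allele and model cannot be told apart. Ovgp1-BPR tumours were lower for Hoxa genes and nearly all Hoxb genes tested, while anterior Hoxc and Hoxd genes were high in some of them. Of 35 members tested, 3 were higher and 24 lower by edgeR, 77.1% against 42.4% of all 20000 genes, with a median log2 difference of -3.37, or -2.68 with bounds, beside -0.005. The lower genes came from all 4 clusters, with 7 of 8 Hoxb, 3 of 9 Hoxc and 3 of 7 Hoxd genes among them, and the higher genes were Hoxc4, Hoxc5 and Hoxd3. For 6 members a group in the mean was at 0, and 4 of these (Hoxa11, Hoxa13, Hoxc11 and Hoxd11) are among the lower calls, so 20 lower calls are of genes with counts in every group.
Hoxa11 had no count in any of the 6 Ovgp1-BPR tumours and 1285 counts over the 12 others, at least 40.5-fold lower, or at least 20.9-fold without Ad-BPR allograft 1, though Pax8-BPR GEMM 1 and 4 and 1 allograft each of Ad-BPR and Pax8-BPR were at 0.00 TPM too. Hoxd11 had no count against 193, at least 6.46-fold lower, or at least 3.48-fold without Ad-BPR GEMM 1. Both calls were lost without Pax8-BPR allograft 1, and that of Hoxd11 also without Ad-BPR allograft 1. In each case the rest of that allograft group was at 0.00 TPM, so the mean on the log scale had no finite value and these fits cannot decide. Without Pax8-BPR allograft 1 the bounds were at least 43.8-fold for Hoxa11 and 6.99-fold for Hoxd11. Without Ad-BPR allograft 1 the bound for Hoxd11 was at least 5.63-fold.
Hoxa10 was at 0.00 to 0.92 TPM in Ovgp1-BPR tumours against 0.00 to 51.2 TPM in the others (log2 -6.29 ± 1.21, edgeR adjusted p = 0.00037). Hoxb9 was at 0.23 to 0.85 TPM in Ovgp1-BPR tumours and at 2.71 TPM or more in all 12 others, with no overlap (log2 -5.68 ± 1.10, edgeR adjusted p = 0.0004).

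Hoxc4, the most anterior Hoxc gene, had 1.23, 95.8 and 1.50 TPM in Ovgp1-BPR allografts 1 to 3 and 1.12, 81.2 and 9.21 TPM in GEMM 1 to 3. Ad-BPR tumours held 0.57 to 3.01 TPM and Pax8-BPR tumours 0.90 to 6.24 TPM. Allograft 2, GEMM 2 and GEMM 3 stood above all of these and the other 3 tumours lay among them. The log2 difference was 3.85 ± 1.01 (edgeR adjusted p = 0.0044), and 1.51 (adjusted p = 0.19) without Ovgp1-BPR allograft 2.
Hoxd3, which acts in the first neck vertebrae, had 0.12, 54.5 and 0.90 TPM in allografts 1 to 3 and 0.40, 146 and 0.00 TPM in GEMM 1 to 3. Outside the model its highest value was 30.2 TPM, in Pax8-BPR GEMM 3. The log2 difference was 3.75 ± 1.44 (edgeR adjusted p = 0.04), and 0.95 (adjusted p = 0.65) without Ovgp1-BPR allograft 2. Hoxc5 had 0.26, 18.8 and 0.59 TPM in the allografts and 0.44, 14.3 and 1.39 TPM in GEMM tumours (log2 2.71 ± 1.00, edgeR adjusted p = 0.034), with 0.60 (adjusted p = 0.68) without allograft 2 and 1.33 (0.31) without GEMM 2.
The 3 higher calls therefore rest on allograft 2 and GEMM 2. Without Ovgp1-BPR GEMM 2, Hoxc4 kept its call at a log2 difference of 2.54, and Hoxd3 differed by 0.00 (edgeR adjusted p = 1). Leaving out Ad-BPR GEMM 1 or 2 or either Pax8-BPR allograft also ended the calls of Hoxc5 and Hoxd3 (edgeR adjusted p of 0.051 to 0.12, with a log2 difference of 5.65 for Hoxd3 without Ad-BPR GEMM 1), and limma on log2(TPM + 1) made none of the 3 (0.098 to 0.34). Hoxd4, which shares exon bases with Hoxd3 and so is not a separate measure, was at 11.0 TPM in allograft 2 and 44.7 TPM in GEMM 2. It was at 0.72 and 9.89 TPM in allografts 1 and 3, and at 9.02 and 0.76 TPM in GEMM 1 and 3. On chromosome 11, Hoxb2 was at 26.1 and 31.0 TPM and Hoxb4 at 16.6 and 12.8 TPM in allograft 2 and GEMM 2, genes chosen after their values were seen. Hoxb3os, antisense to Hoxb2 and Hoxb3, was at 18.6 and 14.9 TPM in these, against 0.39 to 6.09 TPM in the other 4 tumours. Genes of paralogue number 5 and above in the Hoxa and Hoxb clusters did not pass 1.26 TPM in either library.
Ovgp1-BPR allograft 3 and GEMM 1 held another set at low level, with Hoxb6 at 8.22 and 5.12 TPM and Hoxb7 at 11.2 and 3.54 TPM. Hoxd8 was at 11.5 and 5.77 TPM in these, but did not set them apart, as GEMM 2 held 17.6 TPM. Allograft 1 was nearly empty, with 3 members at 1 TPM or more and a sum of 13.8 TPM. Epithelial markers summed to 4642 and 2800 TPM in Ovgp1-BPR allograft 3 and GEMM 1. They summed to 1234.5 and 713.9 TPM in allografts 1 and 2, and to 1178.8 and 940.4 TPM in GEMM 2 and 3. Epcam, a marker of this list, stood at 578 and 240 TPM in allograft 3 and GEMM 1. It stood at 3.65 and 0.53 TPM in allografts 1 and 2, and at 56.75 and 4.45 TPM in GEMM 2 and 3. The sums were 5647 to 9526 TPM in Ad-BPR and 2261 to 10303 in Pax8-BPR tumours. The part of these markers in the Hox differences was not tested.

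**Figure D5:**
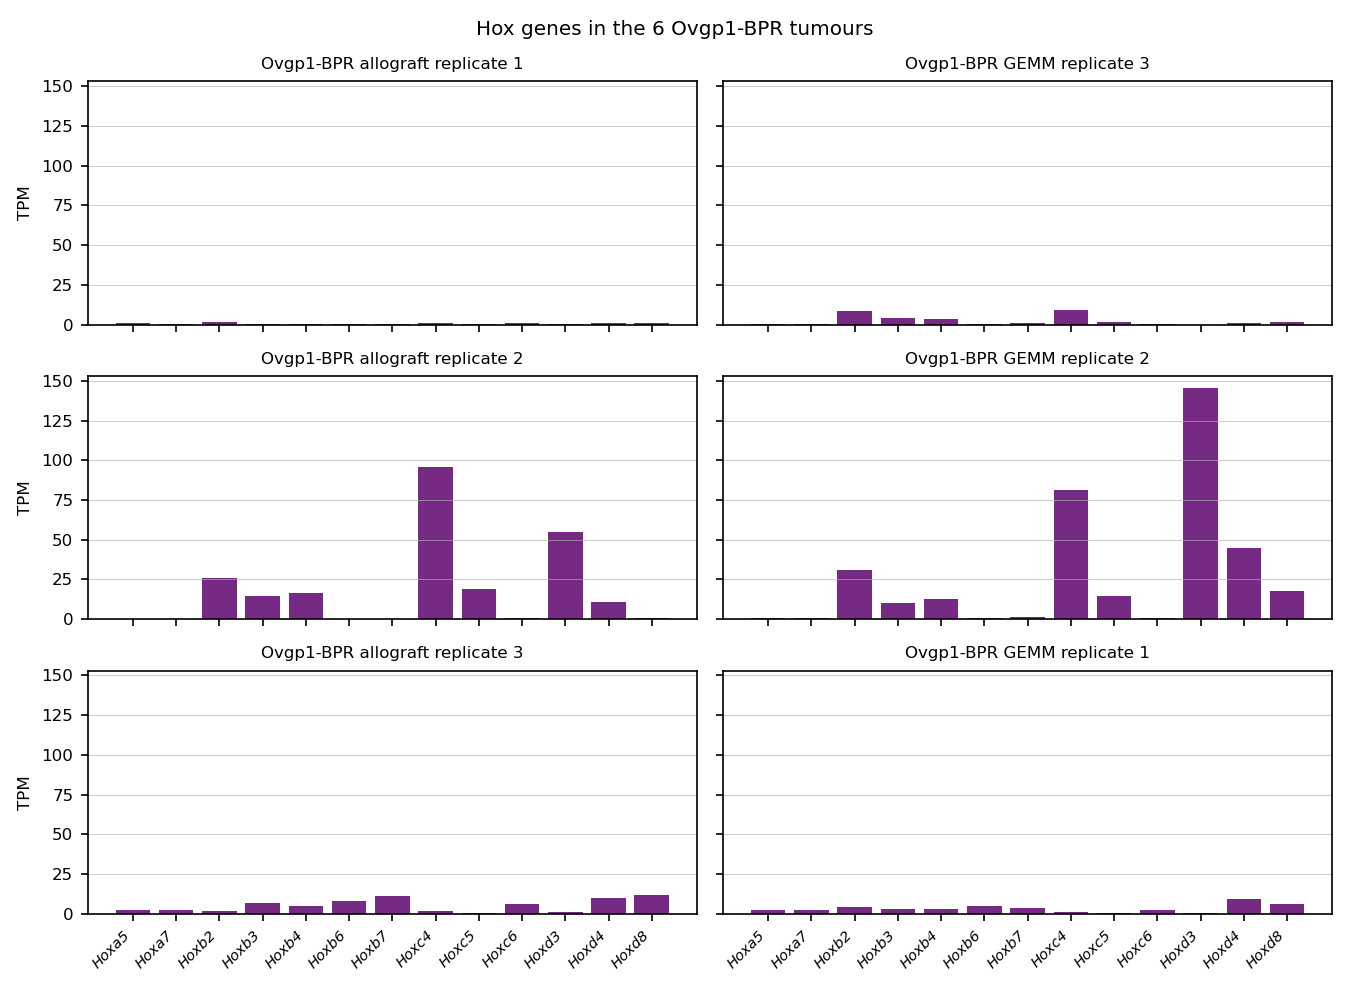
TPM of 13 Hox genes in the 6 Ovgp1-BPR tumours, 1 panel each, allografts at left and GEMM tumours at right on a common axis from 0. Allograft 2 and GEMM 2 hold the high Hoxc4 bars (95.8 and 81.2 TPM) and Hoxd3 bars (54.5 and 146 TPM).

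Within Ad-BPR and Pax8-BPR, single tumours or pairs of tumours carried their own Hox sets. Ad-BPR allograft 1 had 35.2 TPM of Hoxa11, with 23.8 TPM of its antisense Hoxa11os, and 51.2 TPM of Hoxa10, whereas allografts 3 and 4 held 45.5 and 40.5 TPM of Hoxa3, with 53.8 and 36.7 TPM of the neighbouring RNA Hotairm1, and 1.52 and 7.22 TPM of Hoxa10. Allograft 2 held 9.42 TPM of Hoxa11, 12.4 TPM of Hoxa10 and 1.25 TPM of Hoxa3. Allografts 1 and 2 of this model thus differed from allografts 3 and 4 in whether the anterior or the posterior end of Hoxa was high. Whether allografts 1 and 2, or 3 and 4, share a source is not given. Pax8-BPR allograft 2 and Pax8-BPR GEMM 2 were the highest for posterior Hoxb genes. Hoxb6 stood at 177 and 92.9 TPM in these, Hoxb8 at 79.5 and 81.8 TPM and Hoxb9 at 103.5 and 81.6 TPM, against at most 39.8, 14.5 and 19.9 TPM in the other 4 Pax8-BPR tumours. Pax8-BPR GEMM 3 carried the Hoxd peak, with 30.2 TPM of Hoxd3, 82.9 of Hoxd4 and 53.6 of Hoxd8.

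Allografts were compared with GEMM tumours over the 4 models with equal weight, to ask whether transfer to another mouse moved the Hox genes. None of 35 members was called by edgeR, against 0% of all 20000 genes, and DESeq2 called 0. An unadjusted p under 0.05 was found for 3 members. The median log2 difference was 0.35 for the members and -0.017 for all genes, and for 9 members a group in the mean was at 0.

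Hox cofactors and regulators were followed as listed genes. Of 9 TALE homeobox cofactors, 4 were higher and 2 lower in oviduct than in ovary by edgeR, where 53% of all genes were called, led by Meis2 (log2 3.31 ± 0.11, adjusted p = 4.4e-06) and Meis1 (2.41 ± 0.08, adjusted p = 4.5e-06), which stabilise Hox proteins on DNA. Meis2 was lower in OSE-BPR than in oviduct-origin tumours, with a log2 difference of -4.89 ± 1.45 in GEMM tumours (edgeR adjusted p = 0.017) and -3.89 ± 1.06 in allografts (adjusted p = 0.0072), while Pbx4 was higher in both (1.41 ± 0.42 in GEMM tumours). In Ovgp1-BPR against Ad-BPR and Pax8-BPR tumours 4 TALE genes were higher, where 42.4% of all genes were called, among them Pknox2 (2.57 ± 0.40) and Pbx4 (2.02 ± 0.33), and Meis3 was lower (-1.66 ± 0.61). Against the normal organ, 1 TALE gene was higher and 1 lower in OSE-BPR GEMM tumours, where 23.2% of all genes were called. In Ovgp1-BPR GEMM tumours 2 were higher and 1 lower (32.6% of all genes called). None was called in Ad-BPR (24.1%), and 1 was lower in Pax8-BPR GEMM tumours (32.2%).
Of 18 Polycomb genes, which encode repressors of the clusters, 1 was higher and 7 lower in oviduct than in ovary, a smaller share than the 53% called among all genes. GEMM tumours had 4 higher and 0 lower in OSE-BPR against ovary (23.2% of all genes called). Against oviduct, 8 were higher and 1 lower in Ovgp1-BPR (32.6% of all genes called), 3 higher and none lower in Ad-BPR (24.1%), and in Pax8-BPR 6 higher and 2 lower (32.2%). Ezh2, the methyltransferase of the complex, was higher each time: by 1.05 ± 0.35 in OSE-BPR (edgeR adjusted p = 0.029), 2.66 ± 0.36 in Ovgp1-BPR (7.3e-06), 1.56 ± 0.38 in Ad-BPR (0.005) and 1.97 ± 0.34 in Pax8-BPR (0.00012). Between tumours, 3 Polycomb genes were higher and 1 lower in OSE-BPR against oviduct-origin GEMM tumours (26% of all genes called), 5 higher and 2 lower in allografts (37.8%), and 5 higher and 3 lower in Ovgp1-BPR against Ad-BPR and Pax8-BPR (42.4%).
Of 9 chromatin activators of Hox genes, 8 were lower in oviduct than in ovary, all by less than 1 on the log2 scale, where 24.5% of all genes were lower. In GEMM tumours against the normal organ, Ovgp1-BPR had 4 higher, Pax8-BPR 2, and OSE-BPR and Ad-BPR 1 each, and none was lower, beside the shares of all genes given for the Polycomb list, while 0 were called in OSE-BPR against oviduct-origin GEMM tumours, 2 were higher in the allografts, and 3 were higher and 2 lower in Ovgp1-BPR against Ad-BPR and Pax8-BPR.
Of 8 upstream factors, 5 or 6 were tested. Cyp26a1, which breaks down retinoic acid, was higher in oviduct than in ovary (log2 9.24 ± 0.33, edgeR adjusted p = 4.7e-06) and higher in OSE-BPR GEMM tumours than in ovary (4.60 ± 1.26, adjusted p = 0.01). Against oviduct it was lower in the GEMM tumours of all 3 oviduct models (log2 -5.68 ± 1.21 in Ovgp1-BPR, -6.83 ± 1.55 in Ad-BPR and -4.62 ± 1.01 in Pax8-BPR). The retinoic acid receptor gene Rarg was lower in OSE-BPR than in oviduct-origin tumours, with a log2 difference of -1.53 ± 0.25 in GEMM tumours (edgeR adjusted p = 0.00022) and -2.08 ± 0.21 in allografts (4.7e-07). In Ovgp1-BPR against Ad-BPR and Pax8-BPR tumours 3 upstream factors were lower, where 42.4% of all genes were called. These were Gdf11 (log2 -1.93 ± 0.39, edgeR adjusted p = 0.00058), Rarg and Rara. Against the normal organ Gdf11 was lower in OSE-BPR (-2.66 ± 0.55, edgeR adjusted p = 0.0013) and Ovgp1-BPR GEMM tumours (-2.81 ± 0.55, 0.00052). Rarg was lower in OSE-BPR GEMM tumours than in ovary, and higher in Ad-BPR and Pax8-BPR GEMM tumours than in oviduct. No listed gene was called between allografts and GEMM tumours.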

How the data were processed

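Total RNA, per the labels, was extracted and sequenced from 32 mouse libraries in 10 groups. The submitters' processing notes name bcl2fastq, cutadapt 1.18, STAR 2.7.0f, RSEM 1.3.1, Picard and the build mm10 (GRCm38); the annotation release and strandedness are not given in the sources used here, and all 39 Hox gene IDs matched GENCODE M21. RSEM expected counts per gene, deposited by the authors, were rounded to whole numbers for tests. TPM, deposited by the authors, were used for levels.

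Values of 1 member are not reported here. Members and lists were chosen with earlier results of these data known. Genes passed filterByExpr (minimum count 10, total 15). edgeR 4.0.16 in R 4.3.3 (TMM, quasi-likelihood, group as the only term) was run on 6 normal libraries (17334 genes), 26 tumour libraries (20000 genes) or all 32 (20887 genes), with Benjamini-Hochberg adjustment over all genes tested, and was tested on simulated data. Alternatives used RLE factors, no filter, DESeq2 1.42.0, limma 3.58.1 on log2(TPM + 1) and log2(TPM + 0.1), other sets of libraries, an animal block, and each library left out. In each comparison up to 4 called members per direction and a CPM of 1 or more in the higher group were named by size of change, and up to 3 called members per direction of each regulator list; other members are given by level or count. An arm with no count was set at 3 counts per library to bound a fold. Where a group within a mean of groups has no count, the mean on the log scale has no finite value.

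Oviduct and ovary libraries with the same animal number come from the same mouse, and the correlations of their deviations were -0.107, -0.068 and 0.078. Of 39 pairs of libraries within groups the lowest chi-square per degree of freedom was 10.9, so none was a duplicate. Among Ad-BPR allografts it was 41.3 for 1 and 2 and 58.9 for 3 and 4, against 156 to 162 for the other pairs. Whether each of these pairs shares a source is not given. Depths are 13987123 to 20514825 counts, and floors cover counting error only. The SE of a log2 difference is its absolute value over the square root of the quasi-likelihood F. It therefore includes the spread between libraries. The deposited columns of 0 samples were left out.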

Additional observations from a re-analysis of the deposited data

Results flagged for a closer look

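In groups of 4 or 5 libraries, the highest or lowest library was marked where its gap to the next, relative to the range of the group, passed Dixon's limit. Of 82 sets of a gene and a group examined, 20 were marked. Chance marks about 1 in 20 only where values are independent and normally distributed. The TPM values are skewed and many marks share a library, so the 20 marks cannot be compared with that rate. All values are TPM.

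Pax8-BPR GEMM 2 stood above the other 3 GEMM tumours for a run of Hoxb genes: Hoxb5 at 34.0, Hoxb6 at 92.9, Hoxb7 at 105.0, Hoxb8 at 81.8, Hoxb9 at 81.6 and Hoxb13 at 8.96. The same library stood above for Hoxa10 at 14.2, Hoxa11 at 4.44 and Hoxd11 at 2.27. Pax8-BPR GEMM 3 stood above the others for Hoxd1 at 2.99, Hoxd3 at 30.2, Hoxd4 at 82.9 and Hoxd8 at 53.6, which are neighbours on chromosome 2, and Hoxd3 and Hoxd4 share exon bases.

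Ad-BPR allograft 1 stood above the other 3 allografts for Hoxa9 at 14.6, Hoxd10 at 4.09 and Hoxd11 at 2.18, and Ad-BPR allograft 2 for Hoxc12 at 2.15. OSE-BPR allograft 1 stood above the other 4 for Hoxc8 at 61.5, with at most 17.4 elsewhere. OSE-BPR allograft 4 stood above for Hoxd3 at 3.52 and Hoxd4 at 13.7.

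For 2 genes every GEMM tumour of a model lay on the opposite side of all oviducts from every GEMM tumour of another. Hoxb4 averaged 6.5 in Ovgp1-BPR GEMM and 22.7 in Ad-BPR GEMM tumours, with oviducts between 14.8 and 17.2. Hoxb9 averaged 0.633 in Ovgp1-BPR GEMM and 9.81 in Ad-BPR GEMM tumours, with oviducts between 2.86 and 3.90. The differences between these 2 GEMM groups alone were not tested. Over GEMM tumours and allografts, both genes were called lower in Ovgp1-BPR against Ad-BPR and Pax8-BPR (edgeR adjusted p = 0.008 for Hoxb4 and 0.0004 for Hoxb9).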

How the results depend on the processing

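Counts of Hox genes called stayed within 1.5 times of those reported for Ovgp1-BPR GEMM against oviduct, OSE-BPR against oviduct-origin allografts, Ovgp1-BPR against Ad-BPR and Pax8-BPR, and allografts against GEMM under every alternative run. For oviduct against ovary the replicate block by animal gave 23 called, 20 higher and 3 lower, so the pairing changed no call of a named gene, and a fit on all 32 libraries gave 9. For OSE-BPR GEMM against ovary limma on log2(TPM + 1) gave 9, and leaving out 1 library gave 8 to 13. For Ad-BPR GEMM against oviduct limma on log2(TPM + 1) gave 13, a fit on the groups compared alone 18 (1 higher, 17 lower), and leaving out 1 library 0 to 5. Hoxc12 there had a log2 difference of 0.00 without Ad-BPR GEMM 2, when both sides are at 0, and at most 9.77, a fitted value that depends on the prior count as the oviducts are at 0; DESeq2 made 0 higher and 8 lower calls there, against 3 and 4. For Pax8-BPR GEMM against oviduct limma gave 14 with a pseudocount of 1 and 11 with 0.1, the groups compared alone 12, and leaving out 1 library 3 to 11. For OSE-BPR against oviduct-origin GEMM limma on log2(TPM + 1) gave 12, and leaving out 1 library 7 to 19. With either pseudocount limma made no higher call between OSE-BPR and oviduct-origin tumours, nor between Ovgp1-BPR and the other 2 oviduct models. Of 47 named values, 24 kept their call without each library in turn and 23 lost it at least once; DESeq2 kept 44 of 46, RLE factors 46 of 47, no filter 46 of 47, and limma 35 (pseudocount 1) or 36 (0.1) of 47. Counting members at 0.5 or 2 TPM in place of 1 TPM gave a mean of 21.44 or 15.47 members per library, against 18.44. Groups of 2 to 5 libraries and genes with few counts limit these tests, and the cause of each change was not tested.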
